A study of Homo sapiens with 12 samples.

Results

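U87 and U118, both established human glioblastoma cell lines, were compared after treatment with temozolomide (TMZ). The aim was to see which line differences were left in the treated cells. TMZ is an alkylating drug that adds methyl groups to DNA and is the standard chemotherapy of glioblastoma. The comparison took 6 of the 12 mRNA-seq libraries of the series: 3 of U87 resistant cells and 3 of U118 resistant cells. Both lines came from ATCC and were sorted for cells with neither CD133 nor CD15 at the surface (CD133-CD15-). They were then kept in DMEM/F12 with fetal bovine serum and BMP2, a factor used to hold glioma cells in a differentiated state. "Resistant" in the sample labels stands for the cell aggregations that formed in the cultures given TMZ at 50 μM, and "sensitive" for control cells without the drug. Each group is 1 cell line in 1 state, and the aggregations grew from the few cells that outlived the drug. The labels do not say whether the replicates were separate cultures, so p-values here measure only the spread between these libraries.

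Levels were given as TPM, an abundance per transcript length set to a total of about 1000000 in every library. Read counts cannot be recovered from TPM, the sequencing depth is therefore unknown, and no counting interval could be given. U87 and U118 values lie in separate deposited tables, both over the same 58174 gene identifiers, so line and table cannot be told apart. Tested were the 14124 genes that reached 1 TPM in 3 or more of the 6 libraries. Differences are U87 minus U118 in mean log2(TPM + 1), a scale that understates the differences of genes with low TPM. A call required a limma p under 0.05 after Benjamini-Hochberg adjustment over all genes tested, together with a difference of 1 or more in size. For 3 libraries against 3 the smallest p of an exact permutation test is 0.1, so none is given for single genes.

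Glioblastoma cells that lose glial identity often take on a mesenchymal program, with collagens, fibronectin, matrix proteases and secreted growth factors. Cells that have passed through drug-induced senescence are known for a secretory phenotype in which interleukins, chemokines, growth factors and proteases are released.

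The libraries were compared first. Across genes, the Spearman coefficient was 0.985 within U87 resistant and 0.960 to 0.987 within U118 resistant libraries. Between U118 resistant and U118 sensitive libraries the coefficient was 0.808 to 0.839, whereas it was 0.895 to 0.909 between U118 resistant and U87 sensitive and 0.907 to 0.913 between the resistant libraries of both lines. By this measure the cells labelled U118 resistant stood nearer to U87 than to the cells of their own label. A set of line-specific genes, chosen after the data were seen from the sensitive libraries alone, gave the same order. It held 50 genes at 20 TPM or more in all 3 sensitive U87 libraries and below 1 TPM in all 3 sensitive U118 libraries, and 76 genes with the opposite pattern. Of the 50 genes of sensitive U87, the 3 U118 resistant libraries held 46, 42 and 43 at 1 TPM or more. Of the 76 genes of sensitive U118, they held 27, 19 and 22 at that level, and 48 of the 76 were below 1 TPM in all 3. Why the U118 resistant libraries hold this mixture was not tested. Every result below rests on these 3 libraries, so none can be given without them, and "U118 resistant" is used as the name on their labels.

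**Figure D1:**
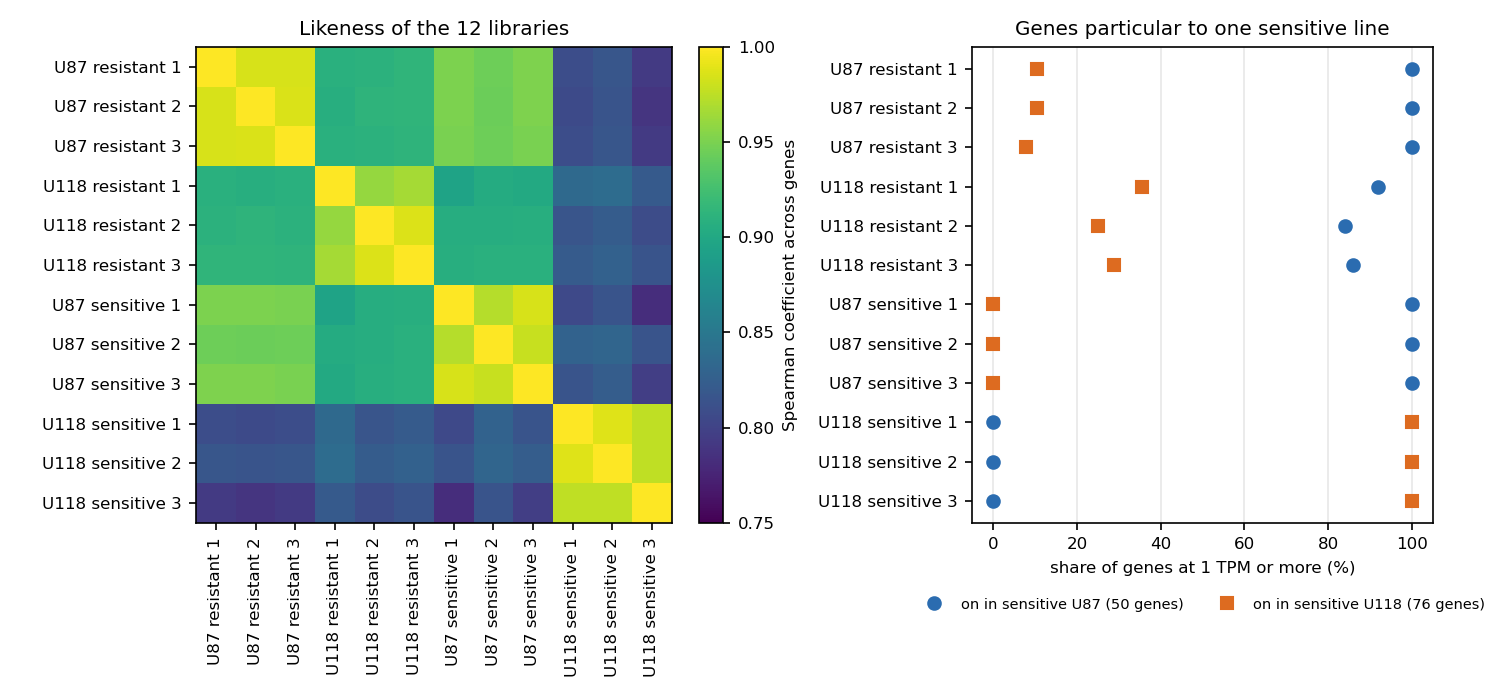
Left, the Spearman coefficient between every pair of the 12 libraries over the 16382 genes that reached 1 TPM in 3 or more of them; right, the share of genes at 1 TPM or more in each library, for 50 genes particular to sensitive U87 and 76 particular to sensitive U118 cells. The 3 U118 resistant libraries held 42 to 46 of the 50 genes and 19 to 27 of the 76.

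U118 resistant replicate 1 also stood apart from the other two of its group. Mitochondrially encoded genes took 13.2% of its TPM, against 29.9% and 26.1% in replicates 2 and 3 and 22.2% to 23.7% in U87 resistant libraries. It held 15193 genes at 1 TPM or more, against 13270 to 13552 in the other 5 libraries. With the total fixed, a lower mitochondrial share leaves more of the TPM to the other genes of that replicate. Why the replicate stood apart was not tested, and results that turn on it are given with and without it. Wherever a library was left out for a value below, the genes tested stayed those tested with all 6 libraries, a choice made after the data were seen, because the filter applied again to 5 libraries drops genes on in 1 line alone.

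Between the resistant cells of the 2 lines, 2198 genes were called, 15.6% of those tested. Higher in U87 were 866 genes (6.13%) and higher in U118 were 1332 (9.43%). The counts in gene lists below are to be read beside these shares. U87 resistant cells held more message for collagen VI, fibronectin and tenascin C, while U118 resistant cells held more for interleukin 1 beta, GDF15 and the EGF receptor family ligands EREG, NRG1 and HBEGF. Genes of mitosis, DNA replication and repair were called in few cases. The split between the directions depended on the scaling and on U118 resistant replicate 1: higher in U118 were 60.6% of calls as deposited, 47.8% after median-ratio scaling (1140 higher in U87 and 1044 in U118) and 46.1% without that replicate (1309 and 1121). The median difference over all genes was -0.15, 0.00 after that scaling and 0.02 without that replicate, and medians of gene groups are set beside it. Irrespective of the call, the TPM of the lines did not overlap for 47.5% of the genes tested, 16.2% higher in U87 and 31.3% higher in U118. Of the 2198 called genes, 1714 code for protein. Most differences were small in size: 1758 calls lay between 1 and 2 on the log2 scale, 300 between 2 and 3, and 48 above 4.

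At the head of the genes higher in U87 were a secreted enzyme, a lipid carrier, an enzyme of NAD synthesis and a cytokine receptor. FUCA2 (ENSG00000001036, chromosome 6, 143494811 to 143511690), a secreted alpha-fucosidase, was at 293, 305 and 314 TPM in the 3 U87 libraries and at 0.0287, 0 and 0 TPM in the 3 U118 libraries. The difference of 8.24 (SE 0.15, limma adjusted p = 1.11e-06) was the largest of all genes tested. APOE (chromosome 19, 44905754 to 44909393), the lipid carrier that astrocytes secrete, stood at 214, 228 and 214 TPM in U87 and at 0.625, 0.509 and 0.721 TPM in U118, a difference of 7.09 (SE 0.15, limma adjusted p = 1.93e-06). In neither gene did the libraries of the lines overlap, which was a condition of naming the largest differences. IL13RA2 (chromosome X, 115003975 to 115019977), the decoy receptor of interleukin 13 and a target of glioblastoma immunotherapy, was at 161, 163 and 178 TPM in U87 and at 0.583, 0.927 and 0.888 TPM in U118, with a difference of 6.55 (SE 0.16, limma adjusted p = 4.12e-06). QPRT, an enzyme of NAD synthesis from tryptophan, was at 163, 162 and 189.6 TPM in U87 and 1.48, 0.495 and 0.365 TPM in U118, a difference of 6.65.

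The rest of that group is given by library. IGFBP4, which binds insulin-like growth factors, was at 104, 112 and 101 TPM in U87 against 1.15, 0.446 and 0.409 TPM in U118 (difference 6.03). MAGEA1, a cancer-testis antigen on the X chromosome, was at 46.1, 46.4 and 50.7 TPM in U87 and listed at 0 in all 3 U118 libraries. SCD5, a fatty acid desaturase, was likewise listed at 0 in U118 and lay between 17.8 and 22.1 TPM in U87. Members of other cell functions in the group were MRGPRF, an orphan receptor (6.47), OCIAD2 (6.19), the histone gene H2AJ (4.85), the secretory granule gene SCG2 (4.84), the fatty acid binding protein FABP3 (4.58) and ABCC2, an efflux pump of the multidrug resistance family (4.48). In all of these the lowest U87 library was above the highest U118 library, but that was a condition of naming the largest differences.

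The genes higher in U118 were led by GYPC, ASS1 and THY1, none of which reached 0.05 TPM in any U87 resistant library. GYPC (chromosome 2, 126655933 to 126696670), a glycophorin of the cell membrane, was at 75.2, 177 and 182 TPM in U118 and at 0 in U87 (difference -7.08, SE 0.35, limma adjusted p = 3.09e-05). ASS1 (chromosome 9, 130444929 to 130501274), the argininosuccinate synthase that lets cells make their own arginine, was at 131, 125 and 93.9 TPM in U118 and at 0 in U87 (difference -6.86, SE 0.19, limma adjusted p = 5.78e-06). THY1 (chromosome 11, 119417378 to 119424985), the surface antigen CD90 of mesenchymal cells, was at 92.2, 104 and 51.2 TPM in U118 and at 0, 0 and 0.0455 TPM in U87 (difference -6.30, SE 0.28, limma adjusted p = 2.5e-05). The U118 libraries lay far above the U87 libraries for each, with GYPC lowest in replicate 1 and THY1 in replicate 3. SERPINB2, the inhibitor of urokinase, was high in U118 at 778, 384 and 479 TPM and low but present in U87 at 6.55, 5.98 and 6.29 TPM (difference -6.17, limma adjusted p = 2.03e-05).

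G0S2, an inhibitor of triglyceride breakdown, was at 0 in U87 and spread widely over U118, at 18.4, 145 and 151 TPM, so its difference of -6.24 had a larger SE of 0.74. FOXC2, a forkhead factor of mesenchymal development, was at 30.2, 26.2 and 26.9 TPM in U118 and at 0 in U87 (difference -4.85, limma adjusted p = 1.29e-05). CYBA, a subunit of the NADPH oxidase, was at 198, 199 and 187 TPM in U118 and 5.60, 9.06 and 8.49 TPM in U87 (difference -4.51). PYCARD, the adaptor of the inflammasome that matures interleukin 1 beta, was at 18.6, 19.4 and 16.6 TPM in U118 and at 0 in U87 (difference -4.26). CES1, a liver-type carboxylesterase (-5.11), the integrin ITGAD (-4.47), the neuronal adaptor FEZ1 (-4.36) and the ribosomal protein gene RPL39L (-4.96), whose reads could be shared with its parent gene, followed. CES1, too, has near copies in the genome, and its value is uncertain in the same way.

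**Figure D2:**
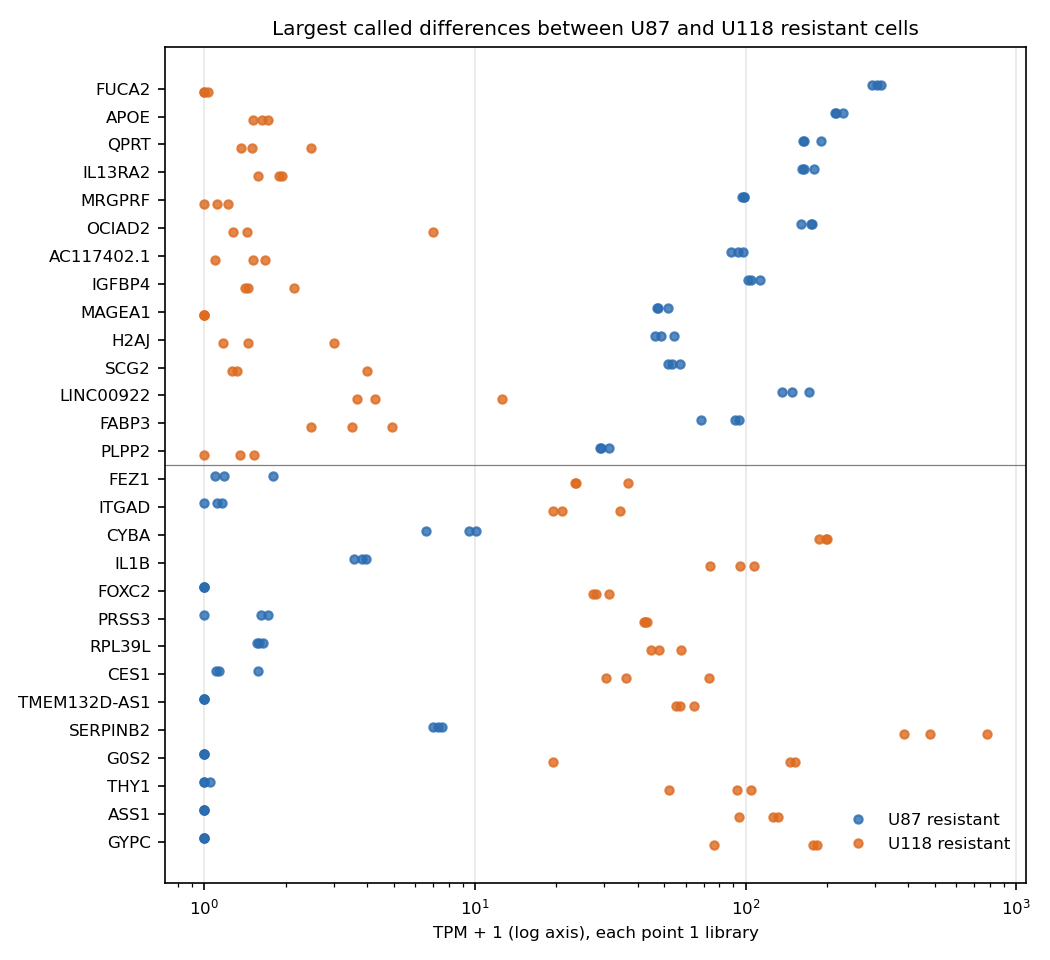
TPM of 28 genes among those with the largest called differences (14 in each direction, pseudogenes left out) in each of the 6 resistant libraries, on a log axis of TPM + 1; each point is 1 library, blue for U87 and orange for U118. For each gene the points of the 2 lines do not overlap, which was a condition of the choice. FUCA2, MAGEA1, GYPC and ASS1 lie at or near 0 in one line.

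Genes that were on in one line and off in the other were counted with limits set after the data were seen: at least 10 TPM in all 3 libraries of one line and below 1 TPM in all 3 of the other. On in U87 were 25 genes and on in U118 were 28. In the fit over all 12 libraries described below, 13 of the 25 were called in the same direction between sensitive cells. Of the others, 8 were gained in the resistant state and 4 had turned direction. Of the 28, 14 were the same, 11 gained and 2 turned, and 1 was called in the resistant cells without a call of the interaction. The 25 included PPARG, the master regulator of fat cell formation, at 14.8, 14.3 and 15.5 TPM in U87 and 0.235, 0.0992 and 0.217 TPM in U118 and RGS10, a brake on G protein signals (4.10). The 28 included IL15RA, the receptor of interleukin 15, at 10.9, 13.7 and 15.5 TPM in U118 and 0.0541, 0.343 and 0.0532 TPM in U87, the long non-coding RNA UCA1 (-3.55) and NPDC1 (-4.28).

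Extracellular matrix genes made up the broadest block in favour of U87 between resistant cells. Of 42 tested matrix glycoproteins and proteoglycans, 15 were called higher in U87 and 6 in U118, with a median difference of 0.65 beside -0.15 for all genes. Fibronectin (FN1), the main adhesive glycoprotein of the matrix, was at 973, 785 and 909 TPM in U87 and at 334, 78.4 and 83.8 TPM in U118, without overlap (difference 2.76, SE 0.52, limma adjusted p = 0.00773). Tenascin C (TNC), a glioma matrix protein, was at 569, 506 and 575 TPM in U87 and 190.2, 155 and 153 TPM in U118 (difference 1.73). Lower in expression but wider apart were MATN2 (3.94), the microfibril gene MFAP4 (3.71), CCN5 (2.71) and periostin, POSTN (2.64). On the other side stood FBLN1 (-2.88) and CCN2 (-1.78), the connective tissue growth factor. Between sensitive cells this list leaned to U118: of 44 tested, 21 were called higher in U118 and 9 in U87. Its median there was -0.79 beside -0.42 for all genes. Calls between sensitive cells were 7 and 2 for collagens, 4 and 1 for laminins and 11 and 5 for matrix proteases, in the same order. Over all genes 26.9% were called higher in U118 and 11.3% in U87 between sensitive cells.

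Of 17 tested collagen genes 5 were higher in U87 and 2 in U118, and those of U87 included the main chains of collagen VI. Without U118 resistant replicate 1 the counts were 6 and 1. COL6A1 was at 1018, 970.3 and 984 TPM in U87 and 227, 198 and 189.9 TPM in U118 (difference 2.27, SE 0.12, limma adjusted p = 4.72e-05). COL6A2 (1.69) and COL6A3 (1.73) followed the same direction. The call of COL6A3 was lost without U87 resistant replicate 1 or 3 (limma adjusted p up to 0.0555) and with no filter on low values (0.0515). COL13A1, a transmembrane collagen, was higher in U118 (-3.93), at 30.3, 10.1 and 10.8 TPM. Of 10 laminin genes, LAMA4, LAMA3 and LAMA1 were higher in U87 (3.08, 2.24 and 1.14) and LAMB3 higher in U118 (-1.23). Integrin genes were called in both directions, 3 each of 16 tested, and without U118 resistant replicate 1 5 were higher in U87 and 3 in U118. ITGA3 and ITGA6, laminin receptors, were higher in U87 (1.45 and 1.86), and ITGA2 and ITGA11, collagen receptors, higher in U118 (-2.31 and -2.08).

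Matrix proteases and their inhibitors were called in 14 of 29 cases, 9 higher in U87. MMP2, a gelatinase, was among the most abundant messages of the group, at 4991, 4482 and 4515 TPM in U87 and 1450.2, 1209.5 and 1199 TPM in U118 (difference 1.86, limma adjusted p = 0.000165). MMP3, stromelysin, was at 246, 232 and 258 TPM in U87 and 37.3, 22.4 and 22.9 TPM in U118 (difference 3.15). The urokinase gene PLAU was higher in U87 (1.29, limma adjusted p = 0.012), a call lost without U87 resistant replicate 2 or 3 (limma adjusted p up to 0.0540), whereas its receptor PLAUR (-1.22) and its inhibitor SERPINB2 were higher in U118. TIMP3 was higher in U118 (-2.62) and TIMP4 in U87 (1.11).

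Cytokine genes leaned the other way. Of 28 tested cytokine and chemokine genes, 12 were higher in U118 and 4 in U87, and their median was -0.66 beside -0.15 for all genes. IL1B (chromosome 2, 112829751 to 112836903), the pro-inflammatory interleukin 1 beta, was at 2.96, 2.58 and 2.84 TPM in U87 and at 107, 73.0 and 94.6 TPM in U118 (difference -4.59, SE 0.19, limma adjusted p = 2.03e-05). IL1A (-1.09), IL6 (-1.90), CXCL8 (-1.95) and the chemokines CXCL1 (-2.0) and CXCL3 (-1.10) were higher in U118, at no more than 15.5 TPM in any library. The calls of IL1A and CXCL3 were lost after median-ratio scaling, at -0.99 for each, that of IL1A also without U118 resistant replicate 1 (-0.98), that of CXCL3 also when any library but U118 resistant replicate 1 was left out (limma adjusted p up to 0.103), and that of CXCL1 without U87 resistant replicate 2 or 3 (limma adjusted p up to 0.0601). CCL3, which attracts monocytes and has near-identical copies in the genome, was at 192, 131 and 137 TPM in U118 and 34.5, 28.9 and 27.6 TPM in U87 (-2.29). CSF3 was at 83.0, 293 and 423 TPM in U118 and 38.9, 25.1 and 43.1 TPM in U87, with its lowest U118 value in replicate 1. CSF3 lost its call without U87 resistant replicate 2 (limma adjusted p = 0.0604) and with no filter on low values (0.0562). After median-ratio scaling 8 of the list were higher in U118 and 4 in U87. Higher in U87, beside IL13RA2, were CCL26 (1.5), IL33 (1.13) and CXCL14 (1.09).

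Growth factor genes and those of the IGF binding proteins were called in 19 of 41 cases, 13 of them higher in U118, with a median of -0.51. GDF15 (chromosome 19, 18374731 to 18389176), a stress-induced member of the TGF beta family, was at 27.4, 31.4 and 27.3 TPM in U87 and 435, 405 and 427 TPM in U118, a difference of -3.84 with the small SE of 0.13 (limma adjusted p = 1.04e-05). Among ligands of the EGF receptor family, EREG (-2.81), NRG1 (-2.07), HBEGF (-1.90) and TGFA (-1.66) were higher in U118. TGFA lost its call without any 1 of the U87 libraries (limma adjusted p up to 0.104). VEGFA, the main angiogenic factor, was at 232, 57.6 and 97.0 TPM in U118 and 29.3, 25.2 and 22 TPM in U87 (-2.06), and lost its call without U87 resistant replicate 2 or 3 (limma adjusted p up to 0.0599) and with no filter on low values (0.0578). IGFBP1 was at 0 in U87 and at 62.3, 11.7 and 8.82 TPM in U118, with replicate 1 well above the other two. IGFBP4 and IGFBP5 (2.90) were higher in U87, so the IGF binding proteins did not share 1 direction. Follistatin, FST, the activin antagonist, was higher in U87 (2.78). Among 21 receptor tyrosine kinase genes EPHA2, an ephrin receptor of glioma cells, had the largest difference, at 70.2, 46.9 and 48.9 TPM in U118 and 4.61, 3.92 and 3.89 TPM in U87 (-3.43, limma adjusted p = 6.24e-05). Receptor tyrosine kinases were called higher in U118 in 5 cases and in U87 in 2, and in 5 and 4 cases without U118 resistant replicate 1.

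Interferon-stimulated genes were called in 13 of 43 cases, 10 higher in U118, but their median of -0.27 lay near that of all genes. OAS2 (-2.07), IFIT2 (-1.91) and OAS3 (-1.44), antiviral effectors, were higher in U118, and IFITM1 (1.92) higher in U87. The genes of MHC class I presentation ran the other way, with 5 of 20 higher in U87 and 2 in U118 (6 and 1 after median-ratio scaling and also without U118 resistant replicate 1) and a median of 0.48. HLA-B, which codes for a heavy chain of the class I complex, was at 704, 742 and 701 TPM in U87 and 380.3, 160.0 and 237 TPM in U118 (1.55, limma adjusted p = 0.00749). Its reads can be split between near copies, and alleles that differ from the reference lose reads, so this value is uncertain.

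Of 6 tested genes of CDK inhibitors, the 9p21 region and the retinoblastoma family 1 was called. It was the retinoblastoma gene RB1, higher in U118 (-1.03). That is 16.7% of the list, near the 15.6% of all genes. RB1 was under the size threshold after median-ratio scaling (-0.89) and without U118 resistant replicate 1 (-0.99). CDKN1A (p21), a brake on the cell cycle, was at 804, 642 and 838 TPM in U87 and 687, 534 and 453 TPM in U118. These values overlapped, and the difference of 0.46 was not called (limma adjusted p = 0.115).

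Proliferation and repair genes were rarely called. Of 67 mitosis genes 1 was called, ASPM, higher in U118 (-1.10) and under the threshold after median-ratio scaling (-0.97) and without U118 resistant replicate 3 (-0.99), with a limma adjusted p of 0.0709 when the spread was taken from all 12 libraries. Of 53 DNA replication genes 2 were called, LIG1 (1.91) and GINS3 (1.37), both higher in U87, and 4 without U118 resistant replicate 1. Of 27 tested genes for the repair of TMZ lesions 1 was called, the uracil glycosylase UNG (1.37), higher in U87, and 2 without that replicate. These are 1.49%, 3.77% and 3.70% of each list, beside 15.6% of all genes. Calls leave out smaller shifts: the median of the mitosis genes was -0.42 beside -0.15 for all genes, and 15 of the 67 lay above the latter. Relative to all genes it was -0.27, or -0.25 after median-ratio scaling and -0.32 without U118 resistant replicate 1. The medians of the replication and repair lists were -0.01 and -0.15. MGMT, which removes the methyl group that TMZ puts on guanine, was listed at 0 in all 6 libraries and could not be tested. It was listed at 0 in sensitive U87 too, and at 5.85, 4.97 and 3.23 TPM in sensitive U118.

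Hypoxia and glycolysis genes were called in 12 of 53 cases (22.6%, beside 15.6% of all genes), 6 in each direction. Without U118 resistant replicate 1 there were 11 higher in U87 and 5 in U118. CA9, a carbonic anhydrase induced by hypoxia, was at 29.3, 26.9 and 29.8 TPM in U87 and 4.16, 2.78 and 2.97 TPM in U118 (2.80, limma adjusted p = 0.000113), and the glycolytic ALDOC was also higher in U87 (2.11). EPAS1, which codes for HIF2α, was at 107, 163 and 84.8 TPM in U87 and 53.2, 49.9 and 50.9 TPM in U118 (1.14, limma adjusted p = 0.0116), but the difference was 0.88 without U87 resistant replicate 2, its highest library. HIF1A was level, at 101, 99.6 and 98.6 TPM in U87 and 84.6, 93.8 and 104 TPM in U118 (0.09, limma adjusted p = 0.653). HIF3A was at 3.32, 3.16 and 3.46 TPM in U118 and at 0 in U87 (-2.11).

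Of the stemness markers the study followed, 2 could not be tested. PROM1 (CD133) did not exceed 0.0171 TPM and SOX2 did not exceed 0.0590 TPM in any of the 6 libraries. FUT4, the enzyme that makes the CD15 sugar, was at 2.06, 1.96 and 1.73 TPM in U87 and at 0.0463, 0.0126 and 0 TPM in U118 (1.52, limma adjusted p = 0.000376). Nestin, NES, a filament of neural progenitors, was at 12, 11 and 11.5 TPM in U87 and 24.1, 10.4 and 11.3 TPM in U118, which overlapped (-0.29, limma adjusted p = 0.533). KLF4, a reprogramming factor, was higher in U118 at 10.9, 7.76 and 6.88 TPM, against 2.11, 1.74 and 2.04 TPM in U87 (-1.66, limma adjusted p = 0.00167). Over the 24 tested markers of glioma state and stemness, 6 were higher in U87 and 2 in U118. CHI3L1, a mesenchymal glioma marker (3.18), and ALDH1L1, an astrocyte enzyme (2.35), led those of U87. The astrocyte filament gene GFAP reached at most 0.693 TPM in the 6 libraries, so the defining glial marker was close to absent in both lines.

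Transcription factors separated the resistant cells of the lines in both directions: of 48 mesenchymal and positional factors, 9 were higher in U118 and 6 in U87. Beside FOXC2, its neighbour FOXL1 on chromosome 16 (-2.92), PITX1 (-3.12), ZIC2 (-3.08) and TBX2 (-2.56) were higher in U118. DLX5 (2.69), TWIST2 (2.29), GATA2 (2.01) and LHX2 (1.91) were higher in U87, at no more than 6.89 TPM, and did not exceed 0.109 TPM in U118. Of 22 tested HOX genes 7 were called, all higher in U118, led by HOXB6 at 16.6, 13.9 and 14.5 TPM against 3.24, 3.30 and 2.89 TPM in U87 (-1.95). After median-ratio scaling 2 HOX genes were higher in U118 and 1 in U87, and without U118 resistant replicate 1 these were 5 and 1. The number of calls thus depended on the scale. The median of the HOX genes relative to all genes was -0.48 as deposited, after that scaling and without that replicate. Between sensitive cells the HOX genes leaned the other way: of 19 tested, 13 were called higher in U87 and 2 in U118. Their median there was 1.77 beside -0.42 for all genes. Between resistant cells the ABC transporters and aldehyde dehydrogenases were called in 10 of 29 cases, 8 higher in U87, among them ABCC2 and ALDH7A1 (3.88). The aldehyde dehydrogenase ALDH1A3 was higher in U118 at 183, 50.8 and 54.4 TPM against 9.40, 8.66 and 7.85 TPM in U87 (-3.07). Of 11 tested cadherin genes 2 were higher in U87 and 3 in U118, among them CDH11, a mesenchymal cadherin, at 0.0277, 0 and 0 TPM in U87 and at 26.0, 9.52 and 10.1 TPM in U118 (-3.86). Of 23 tested genes of caveolae, small GTPases, metallothioneins and peroxiredoxins 1, MT1M (1.43), was higher in U87 and 4 in U118. These calls make up 21.7% of that list, beside 15.6% of all genes. The RAC genes RAC2 (-1.29) and RAC3 (-3.09) were higher in U118, RAC2 at 486, 551 and 566 TPM against 215, 220.0 and 217 TPM.

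**Figure D3:**
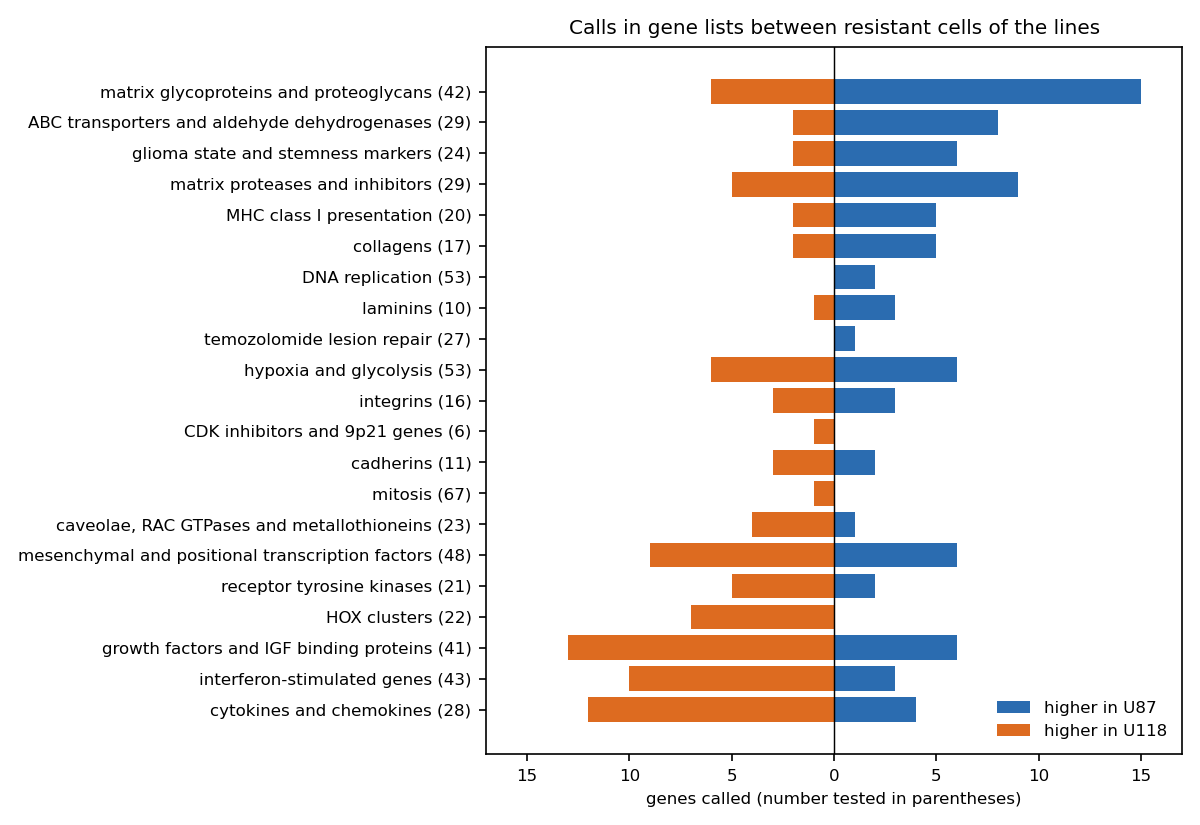
Number of genes called higher in U87 (blue, to the right) and higher in U118 (orange, to the left) in 21 gene lists, with the number tested beside each name. Matrix glycoproteins lean to U87 with 15 against 6, cytokines to U118 with 12 against 4, and mitosis, replication and repair lists hold 1, 2 and 1 calls.

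Markers of other cell types were mostly low. Below 1 TPM in all 6 libraries were 10 of 13 macrophage and leukocyte markers, 6 of 10 endothelial, 10 of 14 neuron and oligodendrocyte and 8 of 13 epithelial markers. PTPRC, the common leukocyte antigen, did not exceed 0.0144 TPM. The summed macrophage and leukocyte level of 208 to 247 TPM in U87 and 313 to 390.0 TPM in U118 was almost all CD68, a lysosomal gene, and no marker of that list was called. Of 14 fibroblast and pericyte markers 1 was below 1 TPM, and mesenchymal glioma cells are known to express many of these genes. Their summed level was 848 to 926 TPM in U87 and 468 to 865 TPM in U118, with 4 called higher in U87 and 1, THY1, in U118. Among the few of these that were tested, the endothelial KDR (1.03, and 0.99 without U87 resistant replicate 1) and the neuronal MAP2 (1.53) were higher in U87, and the endothelial TEK (-1.49), the neuronal SYT1 (-1.28) and the epithelial CLDN7 (-2.75) higher in U118. The part of other cells in the differences was not tested.

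The same contrast between sensitive cells of the 2 lines called 5917 of 15492 genes (38.2%), 1751 higher in U87 (11.3%) and 4166 in U118 (26.9%). To set both states in 1 fit, all 12 libraries were used over 16382 genes, with the interaction as the test of whether the line difference itself changed. In that fit the resistant contrast called 2355 genes (14.4%) and the sensitive contrast 5988 (36.6%). The interaction was called for 4997 genes (30.5%), 3025 with a higher U87 minus U118 difference in resistant cells (18.5%) and 1972 with a lower one (12%). After median-ratio scaling these were 2358 and 2524, so the split between the directions depended on the scaling here too.

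The line differences of both states were then sorted into classes. Kept, meaning called in the same direction in both states, were 984 genes, 16.4% of the sensitive calls and 41.8% of the resistant calls. Lost, meaning called between sensitive cells alone and with the interaction called, were 3023 genes, 50.5% of the sensitive calls. Gained in the resistant state, with the interaction called, were 642, and 260 were called in both states in opposite directions. With a pseudocount of 0.1 in place of 1 the kept were 1617 and the turned 487, so both counts depended on low values. A further 469 were called between resistant cells alone and 1721 between sensitive cells alone without a call of the interaction, so a change of their difference was not shown.

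Among the kept differences, APOE was at 204 ± 13.4 TPM in sensitive U87 and 0.855 ± 0.407 TPM in sensitive U118 (SD, n = 3 each), close to its resistant values, and its interaction of 0.27 was not called (limma adjusted p = 0.416). GYPC was at 161 ± 15.8 TPM in sensitive U118 cells, ASS1 at 67.3 ± 23.8 and SERPINB2 at 537 ± 74.9, with interactions of 0.25, -0.95 and 0.27 that were not called. THY1 and FOXC2 kept their direction but were nearer together in the resistant state, with interactions of 1.80 and 1.67 (limma adjusted p = 0.00447 and 0.00031).

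Gained differences arose in either line. FUCA2 and MAGEA1 were even between sensitive cells, FUCA2 at 269 ± 14.6 TPM in U87 and 253 ± 36.7 TPM in U118 and MAGEA1 at 66.8 ± 9.12 and 58.5 ± 12.2 TPM (SD, n = 3 each). Both were near or at 0 in U118 resistant cells, with interactions of 8.14 and 5.40. IL1B, PYCARD and G0S2 were below 1 TPM on average in the sensitive cells of both lines and high in U118 resistant cells, with interactions of -3.89, -4.19 and -6.35 (limma adjusted p = 3.28e-07, 3.92e-09 and 5.69e-05). SCG2 was the U87 counterpart, at 0.325 ± 0.132 TPM in sensitive and 53.1 ± 2.94 TPM in resistant U87 cells (SD, n = 3 each), with an interaction of 4.80.

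In the largest lost differences the U118 resistant libraries were near the level of U87. RAB32, a GTPase of organelle traffic, was at 0, 0 and 0 TPM in sensitive U118 and at 171, 142 and 158 TPM in resistant U118, against 235, 232 and 248 TPM in resistant U87 (interaction -7.64). CAVIN3, a caveola coat gene, was at 0, 0.111 and 0 TPM in sensitive U118, 289, 257 and 247 TPM in resistant U118 and 140.2, 158 and 160.0 TPM in resistant U87 (interaction -8.51). In the other direction FOXF2, a forkhead factor, was at 205, 219.8 and 228 TPM in sensitive U118 and at 0 in the resistant cells of both lines (interaction 7.77). CDKN2C, an inhibitor of the G1 kinases, was at 189, 190.5 and 135 TPM in sensitive U118 and at or below 0.0301 TPM in the resistant cells of both lines (interaction 7.40). MEST and the collagenase MMP1 followed the same course, at 426 ± 74.1 and 771 ± 77.5 TPM in sensitive U118 (SD, n = 3 each) and at 1.86, 0.612 and 0.478 and 5.05, 1.28 and 1.64 TPM in resistant U118 libraries. The HOXD genes were lost as line differences from the opposite side: HOXD8, HOXD10 and HOXD11 were at no more than 0.152 TPM in sensitive U118 and at 22.3, 14 and 14.7, 11, 7.53 and 8.99 and 8.03, 14.3 and 13.1 TPM in resistant U118, beside 9.84, 9.82 and 12.7, 8.55, 6.60 and 9.99 and 14.8, 15.8 and 12.7 TPM in resistant U87.

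Turned differences included IGFBP4, MMP3, LAMA4 and RPL39L. IGFBP4 was at 41.9 ± 2.54 TPM in sensitive U87 and 201 ± 34.4 TPM in sensitive U118 (SD, n = 3 each), the reverse of the resistant order, with an interaction of 8.25 (limma adjusted p = 6.55e-10). MMP3 and LAMA4 were also higher in U118 between sensitive cells and had interactions of 6.0 and 7.24. RPL39L was at 77.1 ± 9.50 TPM in sensitive U87 and 0.600 ± 0.0420 TPM in resistant U87 cells, while it was at 1.37 ± 0.389 TPM in sensitive U118 and 49.1 ± 6.60 TPM in resistant U118 cells (SD, n = 3 each), giving an interaction of -10.01.

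**Figure D4:**
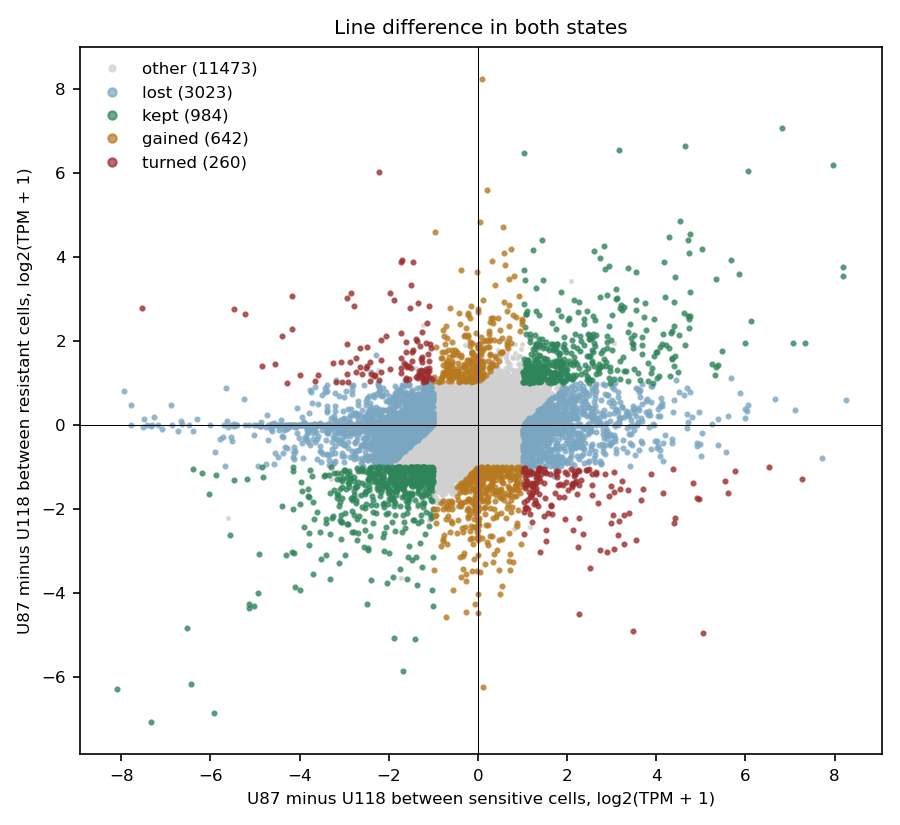
Line difference (U87 minus U118, log2(TPM + 1)) between resistant cells against that between sensitive cells for 16382 genes, coloured by class. The 984 kept genes lie in the quadrants of equal sign, the 3023 lost genes near the horizontal axis, the 642 gained genes near the vertical axis and the 260 turned genes in the quadrants of opposite sign.

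The differences were not spread evenly over the chromosomes. Relative to the median of all genes, the genes of chromosome 13 had a median of -0.53, and 72 of 235 were called, 64 of them higher in U118 (30.6%, beside 15.6% of all genes). Chromosome 18 held calls for 63 of 216 genes (29.2%), 50 higher in U118. Chromosomes 3, 7 and X also leaned to U118, with relative medians of -0.39, -0.34 and -0.32, and chromosomes 9 and 16 to U87, with 0.30 and 0.27. Chromosome 16 held calls for 23.1% of its 724 genes, 90 higher in U87 and 77 in U118. Over all genes 6.13% were called higher in U87 and 9.43% in U118, so its excess lay mostly on the U87 side. After median-ratio scaling the relative median of chromosome 13 was -0.54, and without U118 resistant replicate 1 it was -0.52, and the signs of the 7 chromosomes named were the same. Between sensitive cells 2 of the 7 had a relative median of the opposite sign, chromosome X with 0.44 and chromosome 7 with 0.06. Genes of a chromosome are not independent, and copy number was not measured here, so these medians are descriptions without a test.

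**Figure D5:**
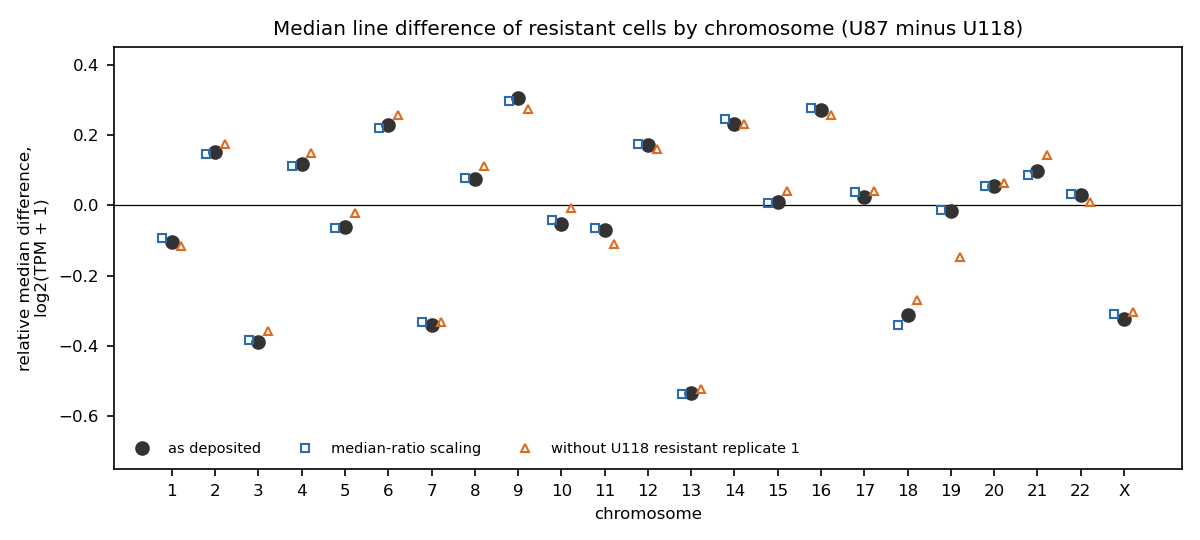
Median difference of the genes of each chromosome relative to the median of all genes (U87 minus U118, log2(TPM + 1)) between resistant cells, as deposited (filled points), after median-ratio scaling (squares) and without U118 resistant replicate 1 with the same genes tested (triangles). Chromosome 13 lies lowest at -0.53 and chromosome 9 highest at 0.30 as deposited.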

How the data were processed

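mRNA-seq was analysed for U87 and U118 cells labelled resistant or sensitive, 3 libraries in each of 4 groups taken from the sample labels. The authors deposited TPM per gene in 2 tables, 1 per line, each over 58174 Ensembl gene identifiers. The submitters' processing notes name FastQC 0.11.2, Trimmomatic 0.36, HISAT2 2.0, bedtools 2.26.0 and GRCh38 without their roles. The tool that estimated TPM, its annotation and the test used for mRNA-seq are not given in the sources used here.

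The tables were joined on gene identifier. Of the identifiers 57392 were matched to symbols through the gene name table and 57836 to positions in GENCODE release 29 (GRCh38), the source of all coordinates. Genes with 1 TPM or more in 3 or more of the 6 libraries were tested on log2(TPM + 1) with limma 3.58.1 in R 4.3.3 (empirical Bayes with a trend), and called at an adjusted p (Benjamini-Hochberg) under 0.05 with a difference of 1 or more in size. The interaction of line and state was fitted over all 12 libraries with the same filter. Python 3.11.15, pandas 2.3.3 and matplotlib 3.10.9 made the summaries and plots. The procedure was tested on simulated data. Median-ratio scaling divided each library by its median ratio to the geometric mean over genes.

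Genes were named by rule: the 15 largest called differences in each direction whose groups did not overlap, the 2 largest called in each direction of each list, the 8 largest in each direction of the kept, gained, lost and turned classes, genes the study followed, and, of genes at 0 in one line and at a mean of 20 TPM or more in the other, the 10 highest. The other genes named were chosen after their values were seen: CCL3, CCN5, CD68, COL6A2, CXCL1, CXCL14, EREG, FN1, FOXL1, FST, GATA2, GFAP, HBEGF, HOXD8, HOXD10, HOXD11, IGFBP5, IL15RA, IL33, ITGA11, LAMA1, LHX2, MGMT, MMP2, NPDC1, NRG1, OAS3, PLAUR, PPARG, PTPRC, RAC2, TBX2, TGFA, TIMP4, TNC, UCA1 and ZIC2. The comparison and the gene lists were chosen with earlier results of these data known. A few genes and 1 gene list are not reported here.

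Alternatives were a pseudocount of 0.1, a filter at a mean of 10 TPM or none at all, median-ratio scaling, TPM without mitochondrially encoded genes, no trend, the replicate number as a block, a spread from all 12 libraries, no threshold on size, and each library left out, with the filter applied again and, added after the data were seen, with the tested genes held.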

Additional observations from a re-analysis of the deposited data

Results flagged for a closer look

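The line difference itself changed between sensitive and resistant cells, by the interaction in the limma fit over all 12 libraries. It moved towards U87 for 3025 genes and towards U118 for 1972, or for 2358 and 2524 after median-ratio scaling. Which direction held more genes therefore depended on the scaling. Each value below is the U87 minus U118 difference of the resistant cells less that of the sensitive cells, in log2(TPM + 1), and each was called. All of them rest on the U118 resistant libraries, which were nearer to U87 than to U118 sensitive libraries across genes.

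Among genes with a kept direction the interaction was 1.80 for THY1 and 1.67 for FOXC2. Among gained differences it was 8.14 for FUCA2, 5.40 for MAGEA1 and 4.80 for SCG2, and -6.35 for G0S2, -4.19 for PYCARD and -3.885 for IL1B. Lost differences gave 8.75 for MEST, 7.77 for FOXF2, 7.45 for MMP1 and 7.40 for CDKN2C, and -8.51 for CAVIN3, -7.645 for RAB32, -4.215 for HOXD8, -3.62 for HOXD10 and -3.46 for HOXD11. Turned differences gave 8.25 for IGFBP4, 7.24 for LAMA4, 6.0 for MMP3 and -10.01 for RPL39L.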

How the results depend on the processing

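Without read counts, small differences of low genes cannot be weighed against depth, and the counts of calls moved with single libraries. Against 866 genes higher in U87 and 1332 higher in U118, leaving out 1 library with the tested genes held gave 712 to 1309 and 1023 to 1632, with 1309 and 1121 without U118 resistant replicate 1. It gave 2542 to 4292 positive and 1822 to 2100 negative interactions, and 874 to 1104 kept, 599 to 818 gained, 2738 to 3521 lost and 247 to 311 turned differences. With the filter applied again to the libraries left, genes on in 1 line alone could no longer reach 1 TPM in 3 libraries. By that construction 380 of the 1332 genes were untested without any 1 of the U118 resistant libraries and 245 of the 866 without any 1 of the U87 resistant libraries. The counts of calls were then 456 to 1303 and 785 to 1197, those of the interaction 2039 to 4282 and 1755 to 1983, and 874 to 1103 differences were kept, 518 to 721 gained, 2165 to 3514 lost and 247 to 311 turned. With a mean of 10 TPM or more, where fewer genes are tested, 427 and 547 genes were called, 1100 interactions were positive and 963 negative, and 512 differences were kept, 235 gained, 1131 lost and 121 turned. A pseudocount of 0.1 gave 1617 kept and 487 turned differences, and calls without a threshold on size were 1453 and 2531. The cause of the other moves was not tested. The replicate number as a block gave 889 and 1360 calls. Same-numbered libraries of the lines had correlations of deviations of 0.023, 0.099 and -0.062. Those of differently numbered libraries ran from -0.097 to 0.076. With 3 libraries in each group these values cannot decide whether the numbers mark a pairing. Of the 154 named genes that were called, 134 kept the call without any 1 library with the tested genes held, and none changed sign there. Over the 14 other settings 64 of the 154 could be tested in all, and of 1883 values 1802 kept the call and 81 lost it.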
